A study of Mus musculus with 100 samples.

Results

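Mouse embryoid bodies of the genotype labelled Mll3-/-;Mll4KI/KI were compared between day 10 and day 4 of differentiation. The 4 libraries were chosen by their titles and are 1 library of KI clone 27 and 1 of KI clone 48 on each day, out of 37 RNA libraries read and 100 samples in the series. Kmt2c and Kmt2d, formerly called Mll3 and Mll4, encode related histone H3 lysine 4 methyltransferases, and the study asks what their enzymatic activities contribute to early development. The labels do not spell out KI. The reference, labelled Mll3-/-;Mll4flox/flox and called flox below, has 1 library per day. Mll3 is therefore null in the KI and in the flox cells alike, and no library of the course has intact Mll3. Further list members are named as examples chosen after their values were seen. Stem cells were kept in medium with 2 kinase inhibitors and the cytokine LIF. They were then aggregated in hanging drops and grown in suspension without LIF, per the labels' protocols. Each KI replicate is 1 cell clone with 1 library per day, and nothing in the labels says whether a day was repeated in separate cultures, so the p-values measure only the spread between these samples.

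Embryoid bodies are aggregates in which pluripotent cells leave self-renewal and pass through epiblast-like and primitive streak-like states. They then form patches of mesoderm, endoderm and, under some conditions, ectoderm. The primitive streak is the site of gastrulation, marked by the T-box factor T (brachyury), and later aggregates are known for vessels, primitive blood, beating heart muscle and yolk sac-like endoderm. Day 4 and day 10 thus sample an early and a late stage of an unpatterned differentiation.

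Read totals of the 4 tables were between 27.3 M and 33.6 M reads, and 19.6 M to 24.0 M reads remained after 1 transcript per gene was kept. Levels are CPM (counts per M reads), scaled to each library total with TMM factors, and are given for clone 27 first and clone 48 second. A count of 3 reads equals 0.135 CPM at day 4 and 0.130 at day 10, which is the limit that a count of 0 allows, for counting error only. The 2 clones were close at day 4 and further apart at day 10: the chi-square of their counts was 5.66 per degree of freedom at day 4 and 41.7 at day 10. A gene is termed called when the edgeR quasi-likelihood test gave an adjusted p under 0.05 over all genes tested. With a day 10 library left out, the spread comes from the closer pairs of the other days. Calls kept or gained in such a fit carry little weight. Of 15676 genes, 11492 (73.3%) were called, 5751 (36.7%) higher and 5741 (36.6%) lower at day 10, and 23.4% were called and at least 2-fold higher and 17.5% at least 2-fold lower. The median log2 fold change over all genes tested was 0.00. The counts of list members below are read against these shares, and direction and size say more than a call does. In whole aggregates, fewer cells of a type and less RNA per cell cannot be told apart.

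**Figure D1:**
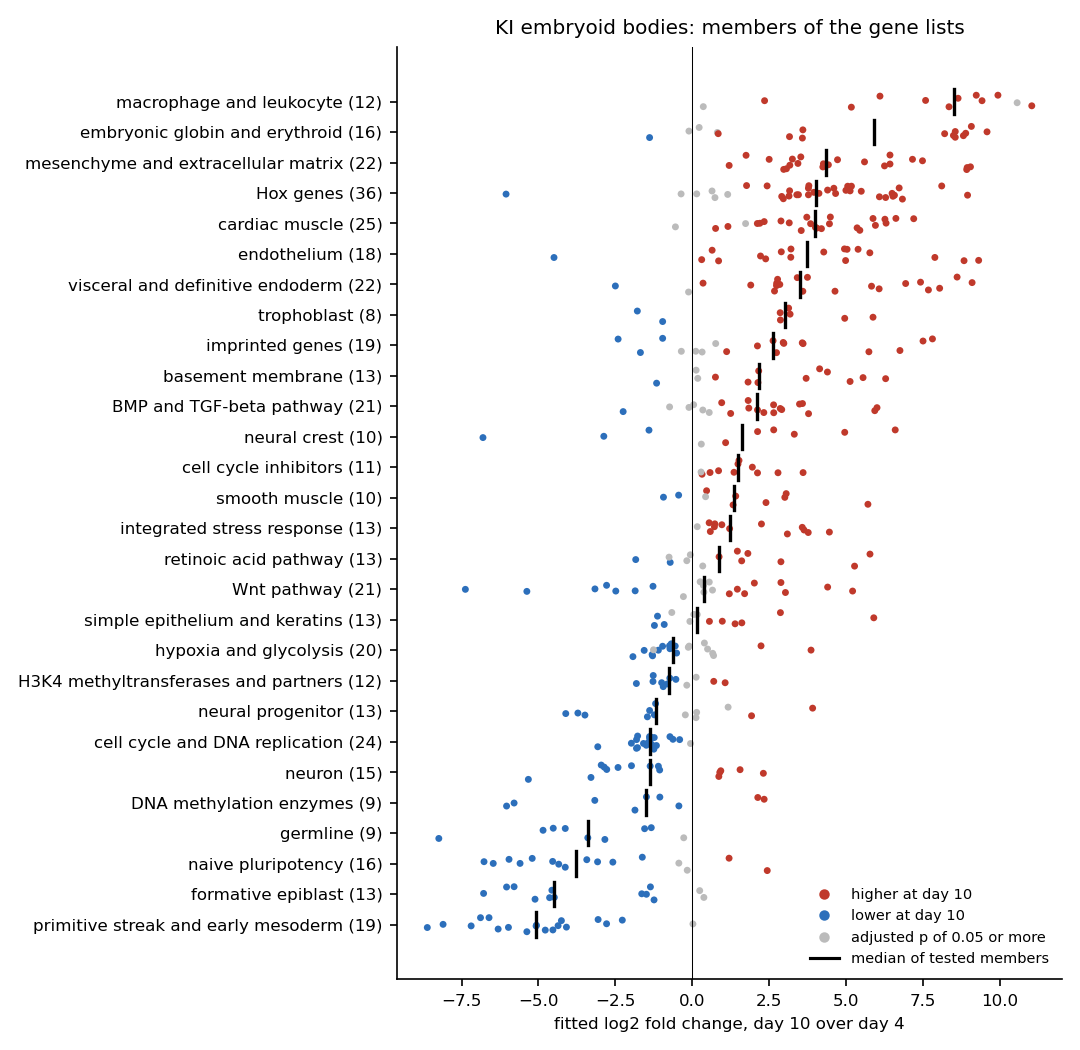
Fitted log2 fold change of day 10 over day 4 (x axis) for every tested member of 28 gene lists (rows, number of tested members in brackets). Points are genes, coloured by direction where called and grey where not, and black bars are list medians, which run from -5.07 (primitive streak) to 8.5 (macrophage). Genes at 0 reads on 1 day are drawn at their fitted value, which depends on the prior count.

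Promoter letters of 4 genes at the extremes of both directions are shown, since these genes went from a high level to near 0 or from 0 reads to a clear signal. Each is paired with a motif that its promoter holds. T and Dll3, a Notch ligand of presomitic mesoderm, are among the largest falls, and capitals mark CAGCTG, an E-box. Dio2, the deiodinase that activates thyroid hormone, and S100g, a calcium-binding protein, are among the largest rises, and capitals mark TATAAA, the letters of a TATA box. The window runs from 250 bases before to 50 bases after the start, from RefSeq, GRCm38.p6, printed along the gene's strand. The marked letters begin at base -249 from the start in T, -7 in Dll3 and -30 in Dio2. In S100g they begin at the annotated start itself (0), so their place differs from that in Dio2. The positions are chr17:8434173-8434472 (T, plus strand), chr7:28301736-28302035 (Dll3, minus strand), chr12:90738989-90739288 (Dio2, minus strand) and chrX:162964550-162964849 (S100g, minus strand).
T: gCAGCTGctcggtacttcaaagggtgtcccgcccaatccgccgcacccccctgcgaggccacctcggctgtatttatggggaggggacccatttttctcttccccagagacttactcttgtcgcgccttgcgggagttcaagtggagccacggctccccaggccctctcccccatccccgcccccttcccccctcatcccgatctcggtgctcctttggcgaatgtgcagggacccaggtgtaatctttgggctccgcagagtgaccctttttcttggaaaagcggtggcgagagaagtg
Dll3: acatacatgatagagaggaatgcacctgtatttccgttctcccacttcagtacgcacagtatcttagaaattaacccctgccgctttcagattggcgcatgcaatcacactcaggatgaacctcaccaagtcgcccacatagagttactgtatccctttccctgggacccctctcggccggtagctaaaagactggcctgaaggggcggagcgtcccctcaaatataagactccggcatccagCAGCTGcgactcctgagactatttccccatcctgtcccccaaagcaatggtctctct
Dio2: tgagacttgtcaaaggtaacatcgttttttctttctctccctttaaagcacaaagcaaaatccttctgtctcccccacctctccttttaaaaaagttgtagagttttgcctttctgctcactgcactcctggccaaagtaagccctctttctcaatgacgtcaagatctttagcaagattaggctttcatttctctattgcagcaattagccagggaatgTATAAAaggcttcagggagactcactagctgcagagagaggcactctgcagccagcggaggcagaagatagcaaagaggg
S100g: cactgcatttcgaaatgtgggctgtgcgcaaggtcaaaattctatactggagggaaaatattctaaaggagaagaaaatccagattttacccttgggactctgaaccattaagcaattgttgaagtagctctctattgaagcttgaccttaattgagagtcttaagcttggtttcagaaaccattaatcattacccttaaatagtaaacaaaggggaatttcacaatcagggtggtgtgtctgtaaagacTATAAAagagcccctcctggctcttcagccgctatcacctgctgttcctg

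Of the 15 largest rises, ranked by fitted change among called genes with a mean of at least 5 CPM on the higher day, 10 had an entry in the RefSeq promoter table, and of the 15 largest falls 11 had one. For genes at 0 reads on day 4 the fitted change depends on the prior count, and so does this choice of rises. Searched on both strands, TATAAA was found for 5 of the 10 rising and 2 of the 11 falling genes, against 13.6% of the 32851 promoters in the table. CAGCTG was found for 2 and 4 genes, against 16.3%. The octamer letters ATGCAAAT were found for 2 rising and 0 falling genes (1.74% of the table), and AGATAA, which GATA factors bind, for none of either (11.2%). CAGCTG reads the same on both strands, and none of the 4 motifs contains another. Il1rn, Pou5f1 and Trp73 have more than 1 entry in the table. A match is a run of letters and not a measured site.

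Genes of the pluripotent state fell. Of the 16 tested members of the naive pluripotency list, 12 were called lower and 2 higher, all of them at least 2-fold, with a median log2 fold change of -3.78. The median was -4.48 and -3.15 without the day 10 library of clone 27 or 48. Pou5f1, the core pluripotency factor Oct4, was at 943 and 1010.3 CPM at day 4 and 11.4 and 6.5 CPM at day 10 (log2 fold change -6.77, SE 0.28, adjusted p = 7.57e-06). The groups did not overlap, and clone 27 was the lower of the pair at day 4 and the higher at day 10. Nanog, its partner factor, was at 104 and 115 CPM at day 4 and 2.00 and 1.52 CPM at day 10 (log2 fold change -5.96, SE 0.15, adjusted p = 4.71e-07). Tdgf1, a Nodal co-receptor, was at 332 and 334 CPM at day 4 and 5.10 and 2.49 CPM at day 10. Both were below 6 CPM in each day 10 library, and Zfp42, Esrrb and Dppa5a, markers of naive cells, fell as well, by 4.54, 4.34 and 5.2 on the log2 scale. Esrrb had -5.15 without the day 10 library of clone 27. Members of the list also used in later tissues moved otherwise. Klf4 was higher (17.8 and 16.5 CPM at day 4 and 97.1 and 88.3 CPM at day 10, log2 fold change 2.44, SE 0.11, adjusted p = 2.2e-06) and so was Tbx3 (54.3 and 51.5 CPM at day 4 and 163 and 78.9 CPM at day 10, log2 fold change 1.2, SE 0.33, adjusted p = 0.0214), whose adjusted p was 0.0557 or 0.0657 without the day 4 library of clone 27 or 48, and whose log2 fold change was 0.59 and 1.64 without the day 10 library of clone 27 or 48. Klf5 and Tfcp2l1 were not called (adjusted p = 0.156 and 0.526). Without the day 10 library of clone 27 both were called lower (log2 fold change -0.86 and -0.53, adjusted p = 3.24e-05 and 0.00124).

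The formative epiblast list, which marks cells leaving naive pluripotency, had 11 of 13 members called lower and 0 higher (median -4.48). Utf1, a chromatin factor of epiblast cells, was at 261 and 263 CPM at day 4 and 3.1 and 1.71 CPM at day 10 (log2 fold change -6.78, SE 0.22, adjusted p = 1.57e-06). Dnmt3b, a de novo DNA methyltransferase, was at 1299 and 1359 CPM at day 4 and 25.3 and 22.4 CPM at day 10 (log2 fold change -5.79, SE 0.14, adjusted p = 4.01e-07). Fgf5, the classical marker of primed epiblast, was at 57.3 and 67.9 CPM at day 4 and 2.72 and 2.30 CPM at day 10 (log2 fold change -4.64, SE 0.15, adjusted p = 8.09e-07). These 3 genes lay within 1.25-fold between the clones at day 4, and each was more than 20-fold lower in both clones at day 10. Sox3, of neural and epiblast cells, was not called (35.4 and 36.9 CPM at day 4 and 59.7 and 25.8 CPM at day 10, adjusted p = 0.583). Its log2 fold change was -0.48 and 0.74 without the day 10 library of clone 27 or 48, on opposite sides of 0. Lef1, a Wnt effector, was not called either (34.9 and 38.9 CPM at day 4 and 66.7 and 29.2 CPM at day 10, adjusted p = 0.459), and its log2 fold change was -0.33 and 0.87 in the same refits. Without the library of clone 48 both were called higher (adjusted p = 1.06e-05 for Sox3 and 0.0318 for Lef1).

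The primitive streak list had the lowest median of all lists. Of 19 tested members, 18 were called lower, all at least 2-fold, and 1 was not called (median -5.07, or -4.78 with the gene at 0 reads on day 10 at its bound). T was at 283 and 312 CPM at day 4 and 1.1 and 1.05 CPM at day 10 (log2 fold change -8.10, SE 0.53, adjusted p = 7.17e-05). Fgf8, a growth factor of the streak, was at 121 and 139 CPM at day 4 and 0.906 and 0.857 CPM at day 10 (log2 fold change -7.19, SE 0.14, adjusted p = 2.46e-07), and Mixl1, a homeobox factor of mesendoderm, at 86.8 and 93.8 CPM at day 4 and 0.572 and 1.21 CPM at day 10. All 3 were near 1 CPM or below in both clones at day 10. Eomes, a T-box factor of the streak, kept a low level (302 and 350.3 CPM at day 4 and 15.4 and 12.8 CPM at day 10, log2 fold change -4.53, SE 0.16, adjusted p = 1.3e-06). Wnt3 (83.6 and 89.0 to 14.1 and 10.9 CPM) and Evx1 (70.7 and 75.9 to 16.4 and 13.9 CPM) fell less, by 2.78 and 2.27 on the log2 scale, and Evx1 had an adjusted p of 0.0513 or 0.0622 without the day 10 library of clone 27 or 48. Msgn1, a factor of presomitic mesoderm, had 2.12 and 2.21 CPM at day 4 and no read in either day 10 library. Cdx2, which also marks trophoblast and gut, was the member not called (8.75 and 11.2 CPM at day 4 and 13.4 and 6.82 CPM at day 10, adjusted p = 0.957). The 15 largest falls, among called genes with a mean of at least 5 CPM at day 4, were T, Wnt8a, Dll3, Fgf8, Gsc, Foxd3, Utf1, Pou5f1, Mixl1, Cabp7, 4930548H24Rik, Trp73, Clca4a, Pla2g1b and Hrnr. Of the last 6, Hrnr was at 69.2 and 48.8 CPM at day 4 and 1.00 and 0.234 CPM at day 10 and the others were under 12 CPM at day 4.

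Endoderm genes rose. Of 22 tested members of the visceral and definitive endoderm list, 20 were called higher and 1 lower (median 3.51), and none of the tested members differed 2-fold between the clones at day 10. The regulators came up from low or moderate levels. Gata4 was at 38.7 and 35.1 CPM at day 4 and 284 and 224 CPM at day 10 (log2 fold change 2.79, SE 0.13, adjusted p = 2.58e-06) and Gata6 at 35.7 and 38.9 CPM at day 4 and 251 and 285 CPM at day 10 (log2 fold change 2.85, SE 0.12, adjusted p = 1.81e-06), both zinc finger factors of endoderm and heart. Hnf4a, a nuclear receptor of visceral endoderm and liver, was at 0.451 and 0.587 CPM at day 4 and 31.9 and 27.6 CPM at day 10 (log2 fold change 5.83, SE 0.41, adjusted p = 2.43e-05). Foxa2, a forkhead factor of definitive endoderm, was at 8.75 and 9.35 CPM at day 4 and 35.4 and 32.1 CPM at day 10 (log2 fold change 1.90, SE 0.13, adjusted p = 1.36e-05).

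Genes of yolk sac endoderm, which absorbs and secretes transport proteins, made large steps. Ttr, the thyroid hormone and retinol carrier transthyretin, was at 0.135 and 0.0904 CPM at day 4 and 69.2 and 60.4 CPM at day 10, a ratio of 574-fold (95% exact interval from the counts 247 to 1776). Rbp4, the retinol-binding protein, was at 1.17 and 1.58 CPM at day 4 and 321 and 244 CPM at day 10 (log2 fold change 7.68, SE 0.21, adjusted p = 7.92e-07). Apob, the scaffold of lipoproteins, was at 1.22 and 1.40 CPM at day 4 and 244 and 206 CPM at day 10 (log2 fold change 7.43, SE 0.21, adjusted p = 8.09e-07), and Dab2, an endocytic adaptor, at 7.98 and 5.38 CPM at day 4 and 502 and 398 CPM at day 10. In all 4 genes every day 10 library was above every day 4 library by more than 40-fold. Afp, alpha-fetoprotein, rose as well (0.180 and 0.136 to 15.3 and 24.7 CPM, log2 fold change 6.94, SE 0.48, adjusted p = 1.41e-05), and Apoe, which many cells make, was already high and moved little (475 and 471 CPM at day 4 and 642 and 559.9 CPM at day 10, log2 fold change 0.35, SE 0.08, adjusted p = 0.00552, or 0.0504 without the day 4 library of clone 48). Apoa2 was lower (2.34 and 2.30 CPM at day 4 and 0.334 and 0.467 CPM at day 10, log2 fold change -2.50, SE 0.30, adjusted p = 0.000196). Markers of mature liver stayed at the detection limit: Alb was at 0 and 0.0779 CPM and Fga at 0.0477 and 0.0389 CPM at day 10. Cer1, of anterior endoderm, had no read in either day 10 library.

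Heart genes rose as well. Of the 25 cardiac members tested, 23 were called higher and none lower (median 4.01). Hand2, a basic helix-loop-helix factor of heart and limb, had the largest fold of the list and was at 3.07 and 2.26 CPM at day 4 and 351 and 432 CPM at day 10 (log2 fold change 7.2, SE 0.18, adjusted p = 5.14e-07), Hand1 at 2.44 and 2.85 CPM at day 4 and 179.8 and 131 CPM at day 10 (log2 fold change 5.88, SE 0.24, adjusted p = 3.81e-06) and Tbx20 at 4.78 and 3.57 CPM at day 4 and 191 and 173 CPM at day 10. Sarcomere genes rose from low levels: Myh6, the alpha heavy chain of cardiac myosin, was at 5.73 and 5.33 CPM at day 4 and 111 and 71.9 CPM at day 10 (log2 fold change 4.05, SE 0.26, adjusted p = 2.79e-05), and Tnnt2, the cardiac troponin T gene, at 0.676 and 0.633 CPM at day 4 and 32.5 and 21.6 CPM at day 10 (log2 fold change 5.36, SE 0.28, adjusted p = 4.06e-06). Clone 27 was above clone 48 for both at day 10. Myl2, the ventricular light chain, was near its floor and not called (0.225 and 0.226 CPM at day 4 and 0.572 and 0.935 CPM at day 10, adjusted p = 0.0577). It was called higher in a fit of only the 4 libraries (adjusted p = 0.0209), without scaling (0.0497) and without the day 10 library of clone 27 (0.0183). Tnni3 was not called either (2.89 and 2.35 CPM at day 4 and 2.43 and 1.17 CPM at day 10, adjusted p = 0.222, or lower with 0.00547 without the day 10 library of clone 27). The summed level of the list was 1270.3 and 1136 CPM in KI at day 10, and 3547 in the flox library.

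In the smooth muscle list, Acta2, smooth muscle actin, was at 44.7 and 22.9 CPM at day 4 and 1728 and 1809 CPM at day 10 (log2 fold change 5.71, SE 0.35, adjusted p = 4.43e-05). Both clones reached nearly the same level. Myl9, a regulatory light chain, was at 19.8 and 21.7 CPM at day 4 and 160.2 and 174 CPM at day 10 (log2 fold change 3.01, SE 0.09, adjusted p = 7.04e-07), and Tpm1, a tropomyosin, at 404 and 370.4 CPM at day 4 and 1024 and 1033 CPM at day 10. Of the 10 members, 7 were called higher, and Cnn1 (39.8 and 39.7 to 16.4 and 24.9 CPM) and Smtn (97.6 and 85.2 to 63.1 and 70.8 CPM) lower, which are both markers of contractile cells. Smtn had an adjusted p of 0.0523 without the day 4 library of clone 27. Des, desmin, was not called (16.8 and 18.2 CPM at day 4 and 16 and 31.0 CPM at day 10, adjusted p = 0.217). Its log2 fold change was 0.83 and -0.12 without the day 10 library of clone 27 or 48. It was called higher in the first (adjusted p = 1.5e-05).

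**Figure D2:**
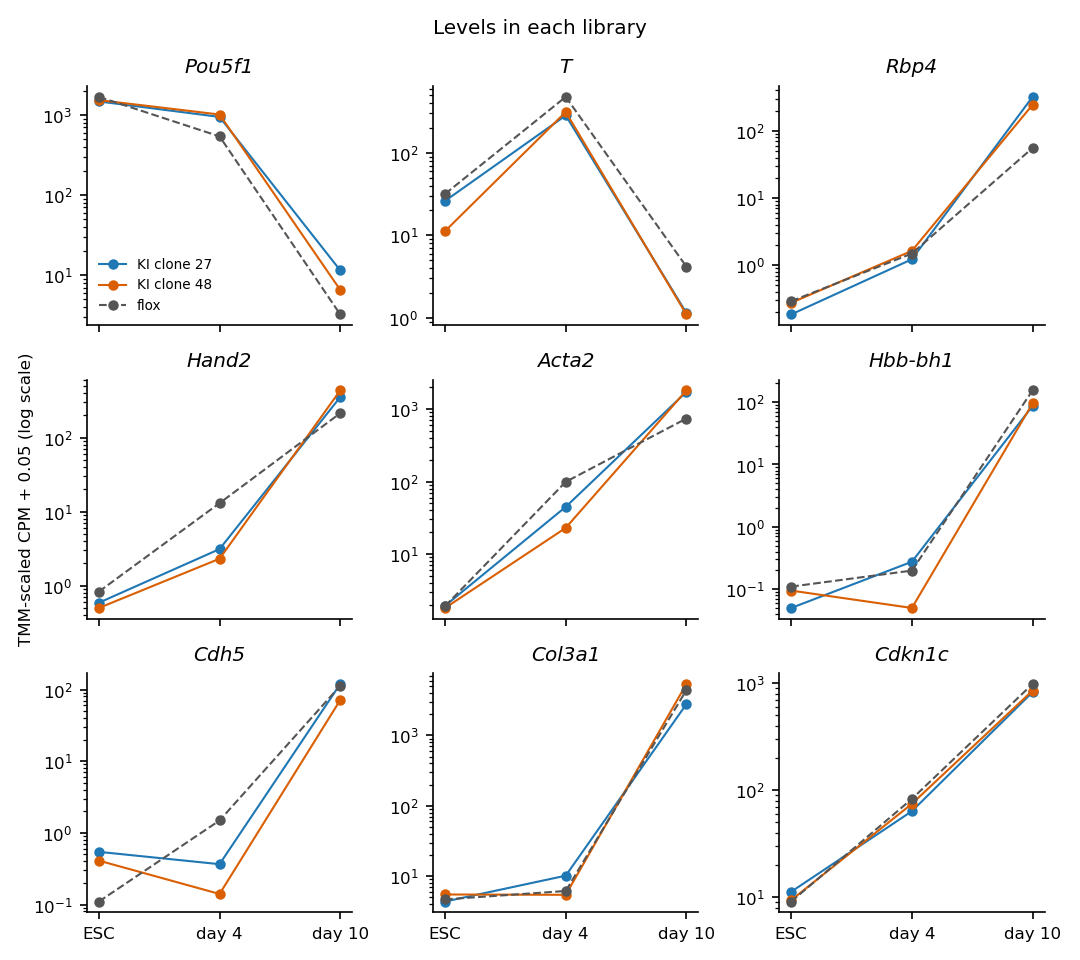
TMM-scaled CPM plus 0.05 (log y axis, separate per panel) of 9 genes in stem cells and in embryoid bodies at day 4 and day 10, with 1 point per library (KI clone 27, KI clone 48, flox). Pou5f1 and T drop to about 10 and 1 CPM at day 10, while the other 7 genes rise in both KI clones.

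Many vessel and blood genes rose from near 0. In the endothelium list, 17 of 18 members were called higher and 1 lower (median 3.75). Cdh5, the cadherin of endothelial junctions, was at 0.316 and 0.0904 CPM at day 4 and 119 and 71.2 CPM at day 10 (log2 fold change 8.84, SE 0.47, adjusted p = 1.71e-05, and 9.96 and 8.21 without the day 4 library of clone 27 or 48). Tie1, an endothelial receptor kinase, was at 0 and 0.0904 CPM at day 4 and 38.8 and 25.5 CPM at day 10, and Tek, the angiopoietin receptor, at 1.49 and 1.99 CPM at day 4 and 52.1 and 58.1 CPM at day 10 (log2 fold change 4.99, SE 0.16, adjusted p = 7.75e-07). Etv2, which acts early in the specification of this lineage, was the member that fell (4.60 and 5.38 CPM at day 4 and 0.238 and 0.195 CPM at day 10, log2 fold change -4.49, SE 0.34, adjusted p = 2.09e-05). Kdr, the VEGF receptor, was already expressed at day 4 (24.2 and 20.0 CPM at day 4 and 167 and 161 CPM at day 10).

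Embryonic globins rose in both clones to like levels. Hbb-bh1 was at 0.225 and 0 CPM at day 4 and 86.4 and 94.9 CPM at day 10, Hbb-y at 0.361 and 0.136 CPM at day 4 and 97.2 and 131 CPM at day 10 and Hba-x at 0.406 and 0.181 CPM at day 4 and 99.7 and 76.6 CPM at day 10 (log2 fold change 8.21, SE 0.28, adjusted p = 1.33e-06, and 8.89 and 7.74 without the day 4 library of clone 27 or 48), all chains of primitive red cells. Each was above 75 CPM in both day 10 libraries. Hba-a1 and Hba-a2 differed by at most 1 read in each library, so these near-identical copies cannot be separated. The adult beta globins Hbb-bt and Hbb-bs were at 0 reads at day 4 and under 3 CPM at day 10. Of the 16 members tested, 12 were called higher and 1 lower (median 5.90, or 3.74 with genes at 0 reads on day 4 at their bounds). The red cell regulators Gata1 (0.676 and 0.542 CPM at day 4 and 0.763 and 1.36 CPM at day 10) and Klf1 (0.406 and 0.407 CPM at day 4 and 0.524 and 0.428 CPM at day 10) were low and not called, while Alas2, the heme enzyme of red cells, rose (0.812 and 1.04 CPM at day 4 and 9.30 and 7.32 CPM at day 10, log2 fold change 3.16, SE 0.32, adjusted p = 7.64e-05). Tfrc, the transferrin receptor, which dividing cells also need, fell (146 and 154 CPM at day 4 and 53.4 and 60.7 CPM at day 10).

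Most macrophage and leukocyte genes were near 0 at day 4 and present at day 10, with a large gap between the clones. Ptprc, the common leukocyte antigen CD45, was at 0 and 0.0452 CPM at day 4 and 3.67 and 34.6 CPM at day 10, a ratio of 848-fold (95% exact interval from the counts 166 to 36649.8) with an adjusted p of 0.00739. Lyz2, lysozyme, was at 0 and 0.0904 CPM at day 4 and 2.72 and 37.5 CPM at day 10, a ratio of 445-fold (95% exact interval from the counts 135 to 4046) with an adjusted p of 0.0137, and Spi1, the myeloid factor PU.1, at 0.406 and 0.452 CPM at day 4 and 4.15 and 26.9 CPM at day 10 (log2 fold change 5.18, SE 1.05, adjusted p = 0.00612, and 5.96 and 3.27 without the day 10 library of clone 27 or 48). In these 3 genes clone 48 was 6 to 14 times as high as clone 27 at day 10, a gap that the intervals from the counts do not cover. Without the day 10 library of clone 27 or 48 the log2 fold change was 10.28 and 7.035 for Ptprc and 9.541 and 5.755 for Lyz2. Csf1r, the receptor of a macrophage growth factor, was closer between the clones (0.180 and 0.136 CPM at day 4 and 21.6 and 41.0 CPM at day 10, log2 fold change 7.59, SE 0.59, adjusted p = 6.05e-05). Of 12 tested members 10 were called higher, with a median of 8.5, or 6.02 with the genes at 0 reads on day 4 at their bounds. The median was 5.75 over the 11 members tested without the day 10 library of clone 48. Laptm5, a lysosomal membrane protein of blood cells, was already present at day 4 and was not called (35.9 and 33.5 CPM at day 4 and 14.4 and 73.9 CPM at day 10, adjusted p = 0.702). Cx3cr1, the fractalkine receptor, had an adjusted p of 0.0553, or 0.000246 with the clone as block. It was called higher as well without either day 10 library, in a fit of only the 4 libraries and with summed transcripts. At day 10 all 12 tested members were higher in clone 48 and 11 by at least 2-fold, against 3.48% of all genes tested. At day 4 none of them differed 2-fold between clones. With 0.5 CPM added, levels as near 0 as those of most members could not show such a gap. The list summed to 58.4 CPM in clone 27 and 324 in clone 48 at day 10, and to 171 in flox. Without the day 10 library of clone 48, 9 of 11 tested members were called higher and 1 lower, Laptm5 (log2 fold change -1.26, adjusted p = 7.62e-08). Without that of clone 27, all 14 were called higher, and without either day 4 library 8 of 14.

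Of the 15 largest rises, among called genes with a mean of at least 5 CPM at day 10, 14 had no read in either day 4 library. Their fitted changes, by which the genes were ranked, depend on the prior count, so the order is not one of measured folds. Hbb-bh1, with a ratio of 804-fold, is not among the 15. The folds of the 14 are therefore given as lower bounds against 3 reads per library, for clone 27 and clone 48 in turn. Cd53 and Tyrobp, both of leukocytes, were at 2.38 and 21.3 and at 2.86 and 20.3 CPM at day 10, at least 17.6 and 158-fold higher for Cd53 and 21.1 and 149.8-fold for Tyrobp. Ctss, Pik3cg, Csf2rb and Ms4a6d, also known from myeloid cells, were at 1.1 and 16.8, 2.62 and 15.0, 6.91 and 12.2 and 1.53 and 11.4 CPM. They were at least 8.10 and 124-fold (Ctss), 19.4 and 111-fold (Pik3cg), 51.1 and 89.7-fold (Csf2rb) and 11.3 and 84.6-fold (Ms4a6d) higher, with the smaller bound in clone 27 each time. Lyve1, a receptor of lymphatic endothelium and some macrophages, was even between the clones (7.82 and 8.33 CPM, at least 57.7 and 61.5-fold higher). Cavin2, a caveolar coat protein, was at 14.5 and 24.9 CPM (at least 107 and 184-fold), Dio2 at 10.4 and 32.7 (at least 77.1 and 242-fold) and S100g at 6.91 and 10.7 (at least 51.1 and 78.8-fold). The interferon-induced genes Ifi44 and Ifi204 were at 8.68 and 14.6 and at 2.91 and 8.84 CPM, at least 64.1 and 108-fold and 21.5 and 65.3-fold higher. Il1rn and Sprr2d were at 2.10 and 11.2 and at 2.00 and 10.6 CPM, at least 15.5 and 82.5-fold and 14.8 and 78.2-fold higher. With DESeq2 the adjusted p was 0.0661 for Ifi204 and 0.0631 for Sprr2d. Hapln1, which links hyaluronan to proteoglycans, had 1 read at day 4 and 27 and 37.0 CPM at day 10, a ratio of 1421-fold (95% exact interval from the counts 261 to 57571). Its log2 fold change was 10.16, and 9.307 without the day 4 library of clone 48. It was 12.51 without that of clone 27, where no day 4 read is left.

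Connective tissue genes made the broadest rise. All 22 members of the mesenchyme and extracellular matrix list were called higher and at least 2-fold (median 4.35, or 5.04 and 3.84 without the day 10 library of clone 27 or 48). Col3a1, a fibrillar collagen, was at 10.1 and 5.38 CPM at day 4 and 2783 and 5384 CPM at day 10 (log2 fold change 9.05, SE 0.57, adjusted p = 9.81e-05) and was among the genes with the most reads at day 10, as were Eef1a1, Fn1 and Igf2 (at day 4 Eef1a1, Hsp90ab1, Eef2 and Hspa8 were). Postn, periostin, was at 2.66 and 1.63 CPM at day 4 and 747 and 1335 CPM at day 10 (log2 fold change 8.93, SE 0.45, adjusted p = 2.21e-05). Lum, the proteoglycan lumican, was at 0.406 and 0.226 CPM at day 4 and 77 and 237 CPM at day 10 (log2 fold change 8.94, SE 0.92, adjusted p = 0.000605, and 9.54 and 7.92 without the day 10 library of clone 27 or 48). Fn1, fibronectin, was abundant on both days (1897 and 1584 CPM at day 4 and 5193 and 6473 CPM at day 10). Per length, the highest levels of the list at day 10 were those of Sparc, a collagen-binding glycoprotein (mean deposited RPKM 71.1 at day 4 and 658 at day 10), Col3a1 (1.01 and 630.3) and Fn1 (152 and 603). At day 10, 21 of the 22 members were higher in clone 48, 9 of them at least 2-fold. Col1a1 was at 776 and 3432 CPM, Col6a1 at 41.5 and 203, Lox, the collagen cross-linking oxidase, at 43.8 and 179 and Eln, elastin, at 9.01 and 52.7. Without the day 10 library of clone 27 or 48 the log2 fold change was 6.96 and 4.82 for Col1a1, 7.16 and 4.87 for Col6a1, 4.95 and 2.92 for Lox and 4.21 and 1.66 for Eln, whose adjusted p was 0.0562 without the day 4 library of clone 48. With either day 10 library left out, that day had no replicate, so calls kept there are not read as support. Twist1, a mesenchymal transcription factor, ran the other way (215 and 98.9). At day 4 no member differed 2-fold between the clones and 4 of 22 were higher in clone 48.

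Basement membrane genes rose in 10 of 13 tested members. Lama1, the laminin chain of the earliest basement membranes, was at 9.56 and 8.86 CPM at day 4 and 684 and 752 CPM at day 10 (log2 fold change 6.29, SE 0.37, adjusted p = 3.8e-05). Col4a1 was at 151 and 99.7 CPM at day 4 and 2152 and 2263 CPM at day 10 (log2 fold change 4.14, SE 0.26, adjusted p = 4.02e-05) and Col4a2 at 101 and 65.2 CPM at day 4 and 1770.4 and 1726 CPM at day 10, the chains of the common collagen IV. Lama5, another laminin chain, fell (908 and 787 CPM at day 4 and 419.8 and 336 CPM at day 10, log2 fold change -1.16, SE 0.12, adjusted p = 9.88e-05), and Nid2, nidogen 2, was not called (adjusted p = 0.469, or higher with 0.00714 without the day 10 library of clone 27).

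**Figure D3:**
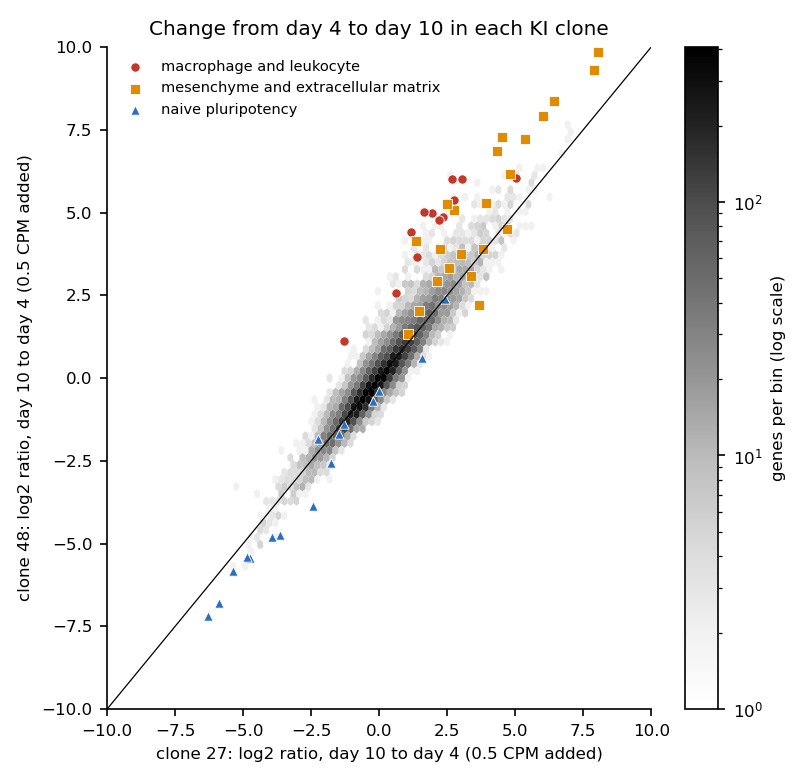
Log2 ratio of day 10 to day 4 with 0.5 CPM added in clone 27 (x axis) and in clone 48 (y axis). Grey hexagons count the 15676 genes tested, coloured points are members of 3 lists, and the line marks equal change. Macrophage and most matrix genes lie above the line, and most naive pluripotency genes below 0 and below the line.

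Across the 15676 genes tested, both clones changed in the same direction for 90.5%. At least 2-fold differences between the clones rose from 26 genes at day 4 to 612 at day 10, on log2 ratios with 0.5 CPM added. At day 10 clone 48 was the higher in 545 (3.48%) and clone 27 in 67. These counts rest on 1 library per clone and day and carry no test. The 10 genes whose change differed most between the clones were Angptl7, Fmod, Fcrls, Rtl1, C1qb, Itgam, Slc11a1, Cybb, Mpeg1 and Arhgap30. Fmod, a collagen-binding proteoglycan, was at 0.135 and 0.0452 CPM at day 4 and 2.29 and 39.2 CPM at day 10. Angptl7, a secreted angiopoietin-like protein, was at 0.631 and 0.587 CPM at day 4 and 0.429 and 22.2 CPM at day 10. Fcrls, Itgam, Cybb, Mpeg1 and C1qb, all known from macrophages or microglia, were at 3.48 and 48.3, 3.24 and 41.4, 1.24 and 19.3, 1.62 and 24.9 and 0.334 and 9.46 CPM at day 10. Clone 48 was the higher in all 10 at day 10. Between days, Angptl7 was not called (adjusted p = 0.088, or 0.0365 with the clone as block, 0.0297 with DESeq2 and 4.59e-07 without the day 10 library of clone 27), and neither was Arhgap30. Both had a negative fitted change without the day 10 library of clone 48 (-0.49 and -0.14). Fmod, Itgam, Slc11a1 and Mpeg1 were called, with adjusted p values of 0.0515 to 0.0901 without either day 4 library, and Cybb was called except without that of clone 48 (0.0508).

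A separate difference between the clones held on every day. Meg3, Rian and Mirg are noncoding RNAs of the imprinted Dlk1-Dio3 domain, normally read from the maternal allele. Meg3 was at 297 and 0.678 CPM at day 4 and 503 and 0.701 CPM at day 10, and Rian at 351 and 0.723 CPM at day 4 and 377 and 2.65 CPM at day 10. Mirg was at 23.5 and 0.0452 CPM at day 4 and 18.2 and 0.467 CPM at day 10. In stem cells the levels were already 169 and 0.854 CPM for Meg3, 229.6 and 0.270 for Rian and 18.4 and 0.0449 for Mirg. Clone 48 was thus under 3 CPM for all 3 in every library, and clone 27 lay above the flox library in each case, with flox at 199 and 331 CPM for Meg3 on days 4 and 10. None of the 3 was called between days (adjusted p = 0.869, 0.98 and 0.922), but with the clone as block Meg3 was (log2 fold change 0.69, adjusted p = 0.0368). With 1 library left out, the 2 days no longer hold the same clones, and the fitted changes of all 3 turned sign in some refits. Dlk1, the protein-coding gene of that domain read from the paternal allele, rose in both clones (13.2 and 11.7 CPM at day 4 and 1644 and 3934 CPM at day 10, log2 fold change 7.81, SE 0.56, adjusted p = 0.000152, and 8.31 and 7.05 without the day 10 library of clone 27 or 48). Rtl1, a further paternally read gene there, overlaps an antisense transcript, and use of strand in the counting is not stated. It was at 5.32 and 0.226 CPM at day 4 and 6.15 and 10.6 CPM at day 10 (adjusted p = 0.383).

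**Figure D4:**
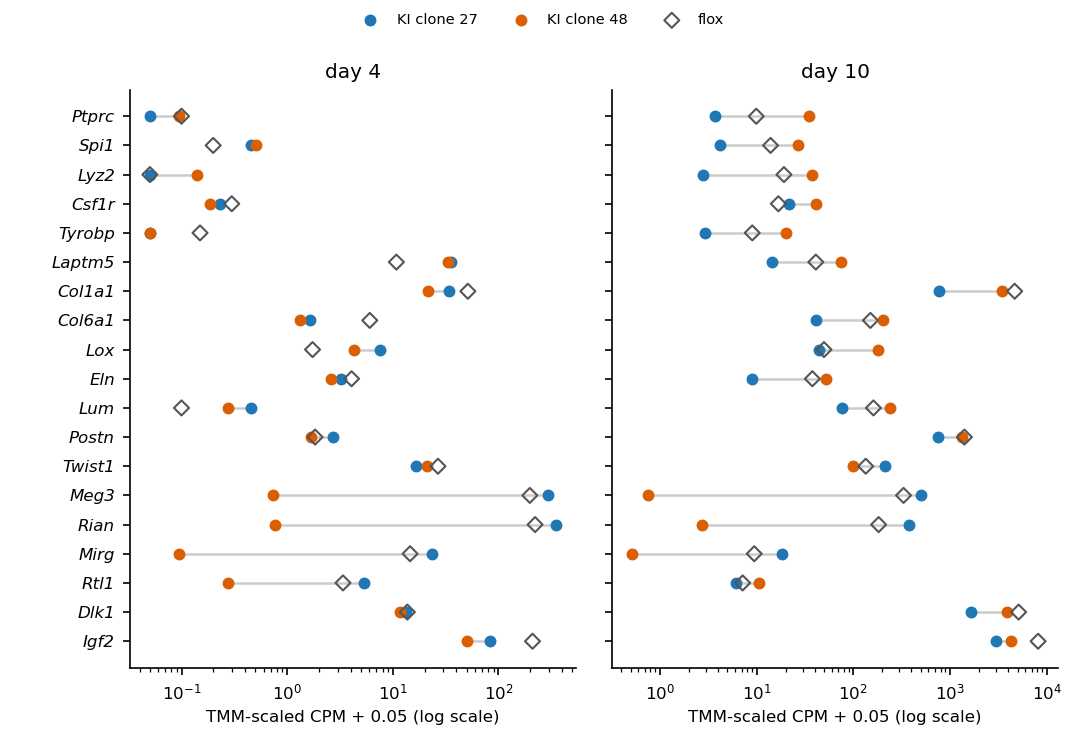
TMM-scaled CPM plus 0.05 (log x axis) at day 4 (left) and day 10 (right) of macrophage, matrix and imprinted genes in KI clone 27, KI clone 48 and flox, 1 library each. Leukocyte and most matrix genes separate the clones far more at day 10 than at day 4, whereas Meg3, Rian and Mirg separate them on both days.

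Most other imprinted genes rose in both clones. Of 19 tested, 12 were called higher and 3 lower (median 2.63). Igf2, a fetal growth factor, was at 84.2 and 50.9 CPM at day 4 and 2987 and 4234 CPM at day 10 (log2 fold change 5.75, SE 0.33, adjusted p = 3.87e-05). Plagl1, a zinc finger factor, was at 13.0 and 10.3 CPM at day 4 and 1852 and 2373 CPM at day 10 (log2 fold change 7.51, SE 0.22, adjusted p = 1.49e-06), and Igf2r, the receptor that clears Igf2, at 176 and 165 CPM at day 4 and 1176 and 1466 CPM at day 10. Grb10, an adaptor that restrains growth, was at 216 and 225 CPM at day 4 and 1386 and 1327 CPM at day 10. Snrpn (217 and 238 to 46.7 and 38.6 CPM), Phlda2 (53.5 and 51.7 to 19.9 and 12.8 CPM) and Ascl2 (1.22 and 1.58 to 0.811 and 0.623 CPM) fell. Ascl2 had an adjusted p of 0.0363, and 0.0654 or 0.183 without the day 4 library of clone 27 or 48, and 0.106 without the day 10 library of clone 48. Its call was also lost with DESeq2 (adjusted p = 0.124), in a fit of only the 4 libraries and without scaling (0.0506 in each).

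Proliferation genes fell and inhibitors of the cycle rose. In the cell cycle and DNA replication list, 23 of 24 members were called lower and none higher (median -1.36). Mki67, a marker of cycling cells, was at 576 and 549 CPM at day 4 and 230.1 and 269.5 CPM at day 10 (log2 fold change -1.16, SE 0.10, adjusted p = 2.9e-05). Ccne1, cyclin E1, fell most (189 and 192 CPM at day 4 and 21.9 and 23.2 CPM at day 10, log2 fold change -3.07, SE 0.08, adjusted p = 5.6e-07), while Ccne2 was not called (28.5 and 30.0 CPM at day 4 and 28.9 and 27.2 CPM at day 10, adjusted p = 0.608). Of the 11 inhibitors, 10 were called higher and none lower. Cdkn1c, the imprinted inhibitor p57, was at 63.6 and 74.5 CPM at day 4 and 824 and 851 CPM at day 10 (log2 fold change 3.61, SE 0.12, adjusted p = 8.99e-07), and Cdkn1b, p27, at 32.7 and 33.0 CPM at day 4 and 103 and 84.8 CPM at day 10 (log2 fold change 1.52, SE 0.11, adjusted p = 1.35e-05). The clones differed by under 1.25-fold for both on both days.

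Of 20 members of the hypoxia and glycolysis list, 11 were called lower, 5 of them at least 2-fold, and 2 higher (median -0.62). Without the day 10 library of clone 27, 5 were called higher. Eno1, enolase, was at 3146 and 3522 CPM at day 4 and 709 and 1035 CPM at day 10 (log2 fold change -1.93, SE 0.19, adjusted p = 0.000226), and Pkm, pyruvate kinase, at 3626 and 3824 CPM at day 4 and 1124 and 1387 CPM at day 10 (log2 fold change -1.56, SE 0.11, adjusted p = 1.48e-05). The 2 members called higher are secreted factors that act on vessels: Vegfa was at 24.4 and 26.5 CPM at day 4 and 447 and 290.3 CPM at day 10 (log2 fold change 3.86, SE 0.31, adjusted p = 0.000112) and Adm at 1.40 and 1.13 CPM at day 4 and 3.53 and 8.33 CPM at day 10. Eno1 has processed pseudogene copies, so its count may hold reads of those.

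Targets of the integrated stress response, a program that acts through the factor ATF4, were higher in 12 of 13 members (median 1.22). Nupr1, a stress-induced nuclear protein, was at 2.16 and 2.08 CPM at day 4 and 47.0 and 46.3 CPM at day 10 (log2 fold change 4.46, SE 0.12, adjusted p = 5.6e-07). Ddit3, the factor CHOP, was at 8.88 and 9.98 CPM at day 4 and 159 and 98.1 CPM at day 10 (log2 fold change 3.77, SE 0.27, adjusted p = 4.97e-05), and Trib3, a pseudokinase, at 14.7 and 17.0 CPM at day 4 and 245 and 149 CPM at day 10. At day 10 none of the 13 members was higher in clone 48, the reverse of the matrix and macrophage lists. Psat1, of serine synthesis, was not called (adjusted p = 0.414, or higher with 0.00205 without the day 10 library of clone 48).

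Neural genes showed no general rise. In the neural progenitor list 7 of 13 tested members were called lower and 2 higher (median -1.19). Without the day 4 library of clone 27 or 48, 5 and 4 were called lower. Sox1, an early marker of neural cells, was at 3.16 and 4.56 CPM at day 4 and 0.334 and 0.117 CPM at day 10 (log2 fold change -4.11, SE 0.46, adjusted p = 0.000128, and -4.97 and -3.50 without the day 10 library of clone 27 or 48). En2, a midbrain and hindbrain factor, was at 5.64 and 5.29 CPM at day 4 and 0.429 and 0.389 CPM at day 10 (log2 fold change -3.72, SE 0.26, adjusted p = 1.35e-05), and Nes, nestin, at 246 and 251 CPM at day 4 and 115 and 102 CPM at day 10 (log2 fold change -1.19, SE 0.13, adjusted p = 0.000134). Lhx2, which is also expressed outside the nervous system, was one of the 2 called higher (0.496 and 1.13 CPM at day 4 and 9.39 and 15.1 CPM at day 10, log2 fold change 3.92, SE 0.43, adjusted p = 0.000131, and 3.44 and 4.61 without the day 4 library of clone 27 or 48). The other was Pax3, of dorsal neural tube and somites (0.135 and 0.226 CPM at day 4 and 0.572 and 0.818 CPM at day 10, adjusted p = 0.0109), which had 0.111 and 0.0543 without the day 4 library of clone 27 or 48 and 0.0606 without the day 10 library of clone 48. It had 0.112 with DESeq2. In the neuron list 10 of 15 were called lower and 5 higher, and 3 or 2 were called higher without the day 4 library of clone 27 or 48. Ina, a neurofilament, was at 37.2 and 43.3 CPM at day 4 and 1.29 and 0.740 CPM at day 10. Nefl, another, was at 121 and 143 CPM at day 4 and 12.3 and 25.7 CPM at day 10. Tubb3, neuronal tubulin, was at 22.1 and 21.9 CPM at day 4 and 45.9 and 33.9 CPM at day 10 (log2 fold change 0.87, SE 0.16, adjusted p = 0.00168) and Gap43, a growth cone protein, at 23.1 and 19.2 CPM at day 4 and 47.4 and 32.9 CPM at day 10 (adjusted p = 0.00733, or 0.0675 without the day 4 library of clone 48). Neurog1, Neurog2 and Hes5 had no read in either day 10 library.

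Neural crest members split, with 6 higher and 3 lower of 10 tested. Foxd3, which also marks pluripotent cells, was at 63.2 and 59.3 CPM at day 4 and 0.858 and 0.273 CPM at day 10 (log2 fold change -6.80, SE 0.28, adjusted p = 2.75e-06, and -7.78 and -6.14 without the day 10 library of clone 27 or 48), and Sox10, the defining factor of migrating crest, was under 1 CPM on both days (0.812 and 0.542 CPM at day 4 and 0.191 and 0 CPM at day 10, adjusted p = 0.0249). The call of Sox10 was lost with DESeq2 (adjusted p = 0.14), without the day 4 library of clone 27 or 48 (0.157 and 0.0828) and without the day 10 library of clone 48 (0.0549). Among the crest members that rose were Snai2 (1.67 and 1.31 CPM at day 4 and 49.7 and 43.0 CPM at day 10, log2 fold change 4.96, SE 0.17, adjusted p = 1.07e-06) and Sox9 (7.03 and 6.01 CPM at day 4 and 79.4 and 50.6 CPM at day 10), both also known from mesenchyme. Among 13 epithelial members, 6 were called higher and 3 lower (median 0.16). Cdh1, E-cadherin, fell (514 and 476 CPM at day 4 and 229 and 191 CPM at day 10, log2 fold change -1.23, SE 0.10, adjusted p = 2.78e-05), while Krt18, a keratin of simple epithelia, rose (200.4 and 163 CPM at day 4 and 700.4 and 406 CPM at day 10, log2 fold change 1.61, SE 0.28, adjusted p = 0.0027). Trp63, of stratified epithelium, rose from near 0 (0.135 and 0.136 CPM at day 4 and 11.4 and 5.41 CPM at day 10).

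Of 8 trophoblast members tested, 6 were called higher, but the defining placental genes Prl3d1 and Tpbpa had no read in any of the 4 libraries and Elf5 at most 1. Among the risers, Gata3 (4.15 and 3.34 CPM at day 4 and 41.0 and 24.7 CPM at day 10) and Hand1 are also known from other tissues. Plac1, of placenta, rose from 0.406 and 0.452 to 15.0 and 12.0 CPM (log2 fold change 4.96, SE 0.27, adjusted p = 4.87e-06). Germline genes fell in 8 of 9, with Ddx4, an RNA helicase of germ cells, at 10.5 and 11.5 CPM at day 4 and 0.477 and 0.467 CPM at day 10 (log2 fold change -4.52, SE 0.26, adjusted p = 6.26e-06).

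Hox genes, which set position along the body axis, rose in 30 of 36 tested members, all at least 2-fold (median 4.04, or 3.87 with bounds). They nevertheless stayed low, with at most 28.1 CPM in a KI library of either day. Hoxa11 was at 0.361 and 0.0904 CPM at day 4 and 28.1 and 15.9 CPM at day 10 (log2 fold change 6.58, SE 0.55, adjusted p = 6.18e-05, and 7.85 and 5.91 without the day 4 library of clone 27 or 48) and Hoxa10 at 0.225 and 0.271 CPM at day 4 and 24.2 and 15.4 CPM at day 10 (log2 fold change 6.29, SE 0.35, adjusted p = 5.08e-06), both of posterior groups of the cluster. Clone 27 was the higher for both at day 10, and 5 of the 36 members were higher in clone 48. Hoxb2 was at 1.44 and 1.81 CPM at day 4 and 12.8 and 12.5 CPM at day 10, of an anterior group. Hoxb1 was the member called lower (2.62 and 3.89 CPM at day 4 and 0.0954 and 0 CPM at day 10, 68.2-fold (95% exact interval from the counts 20.4 to 626) lower, adjusted p = 0.000198). Its log2 fold change was -6.05, and -4.999 without the day 10 library of clone 48. It was -9.216 without that of clone 27, where no day 10 read is left. Hoxa3, Hoxa5, Hoxd1 and Hoxb13 were among those not called, with each of their levels under 4 CPM, and Hoxb13 turned sign without the day 10 library of clone 27. Hoxd1 was called higher without that of clone 48 (adjusted p = 0.000607).

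Among Wnt ligands, Wnt5a (10.4 and 9.44 CPM at day 4 and 239 and 179 CPM at day 10, log2 fold change 4.40, SE 0.17, adjusted p = 2.17e-06) and Wnt2 (1.22 and 1.17 CPM at day 4 and 31.6 and 57.2 CPM at day 10, log2 fold change 5.22, SE 0.35, adjusted p = 2.66e-05) rose and Wnt8a (7.35 and 8.81 CPM at day 4 and 0.0477 and 0.0389 CPM at day 10) and Wnt3a fell. The feedback targets Axin2 (72.6 and 69.0 CPM at day 4 and 35.3 and 23.2 CPM at day 10, log2 fold change -1.27, SE 0.20, adjusted p = 0.00154) and Sp5 (140.4 and 144 CPM at day 4 and 19 and 12.7 CPM at day 10, log2 fold change -3.16, SE 0.28, adjusted p = 0.000154) fell, while Nkd1, an inhibitor, rose (7.58 and 7.36 CPM at day 4 and 67.1 and 43.0 CPM at day 10). In all, 8 of 21 members were called higher and 7 lower, shares close to those over all genes. Of 21 BMP and TGF-beta members, 15 were called higher and 1 lower, or 3 lower without the day 10 library of clone 27. The ligand Tgfb2 was at 13.2 and 11.4 CPM at day 4 and 179 and 158 CPM at day 10 (log2 fold change 3.78, SE 0.12, adjusted p = 7.75e-07) and Bmp4 at 18.8 and 15.8 CPM at day 4 and 107 and 65.7 CPM at day 10 (log2 fold change 2.33, SE 0.25, adjusted p = 0.00026). The target Smad6, an inhibitory SMAD, was at 11.8 and 13.0 CPM at day 4 and 158 and 119.9 CPM at day 10 (log2 fold change 3.49, SE 0.15, adjusted p = 2.51e-06). Fst, the activin-binding inhibitor follistatin, was the member called lower (39.0 and 42.2 CPM at day 4 and 8.53 and 8.49 CPM at day 10, log2 fold change -2.25, SE 0.24, adjusted p = 0.000225). Id3, a target of BMP signalling, was not called (87.5 and 83.2 CPM at day 4 and 159 and 90.8 CPM at day 10, adjusted p = 0.113, or higher with 0.0294 with the clone as block, 0.0221 with DESeq2 and 0.00166 without the day 10 library of clone 48). In the retinoic acid list, Rarb, a receptor and target, rose (0.361 and 0.497 CPM at day 4 and 17.5 and 30.0 CPM at day 10, log2 fold change 5.78, SE 0.37, adjusted p = 9.72e-06), and the synthesis gene Aldh1a2 rose to a low level (0.992 and 0.858 CPM at day 4 and 6.63 and 7.05 CPM at day 10). Cyp26a1, the degrading enzyme, and Crabp2, a binding protein, fell (61.8 and 63.2 to 35.9 and 39.8 CPM and 12.6 and 13.9 to 4.34 and 3.08 CPM).

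Genes of histone and DNA methylation fell for the most part, with 8 of 12 H3K4 methyltransferases and partners called lower and 2 higher. Kmt2d was read at 329 and 313 CPM at day 4 and 236 and 206 CPM at day 10 (log2 fold change -0.53, SE 0.09, adjusted p = 0.00115) and Kmt2c at 33.9 and 34.8 CPM at day 4 and 62.2 and 49.0 CPM at day 10 (log2 fold change 0.70, SE 0.12, adjusted p = 0.0013). Both labels concern these genes, but where the alleles are altered in the transcript is not given in the sources used here, so their levels check no label. Setd1a, which encodes another H3K4 methyltransferase, fell (254 and 229 CPM at day 4 and 104 and 95.6 CPM at day 10, log2 fold change -1.27, SE 0.09, adjusted p = 1.26e-05), as did the shared subunit Dpy30 (76.7 and 81.6 CPM at day 4 and 21.5 and 23.2 CPM at day 10). Ncoa6, a partner of both proteins, rose (56.7 and 55.8 CPM at day 4 and 123 and 112 CPM at day 10). In the list of DNA methylation enzymes 7 of 9 fell, Tet1 among them (258 and 252 CPM at day 4 and 30.7 and 25.9 CPM at day 10, log2 fold change -3.17, SE 0.10, adjusted p = 8.73e-07), while Tet2 (10.7 and 9.58 CPM at day 4 and 47.1 and 55.2 CPM at day 10) and Tet3 (50.6 and 47.3 CPM at day 4 and 232 and 196 CPM at day 10) rose.

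The change in KI was set beside the single flox library per day. The test of the difference between the 2 changes assumes that the lone flox libraries vary like the KI libraries. It called 1234 of 16567 genes (7.45%), 788 with a more positive change in KI, and this count ran from 83 to 4176 when 1 KI library was left out. Without the day 4 library of clone 27 or of clone 48, 184 and 83 genes were called. In the endoderm list 11 of 23 members were called, all with a more positive change in KI. Foxa2 was at 24.7 to 6.99 CPM in flox against a rise in KI (difference 3.71, SE 0.24, adjusted p = 0.000753). Rbp4 rose in flox too (1.44 to 55.5 CPM, difference 2.41, SE 0.45, adjusted p = 0.0258). In the cardiac list the members went both ways. Myh6 reached 938 CPM in flox (difference -3.93, SE 0.46, adjusted p = 0.0101) and Actn2, a sarcomere crosslinker, 54.1 CPM (difference -3.81, SE 0.51, adjusted p = 0.00977). Both had a smaller change in KI. Actn2 was at 3.74 and 3.39 CPM at day 4 and 10.3 and 5.65 CPM at day 10 in KI. Its call between days was lost without the day 4 library of clone 27 or 48 (adjusted p = 0.0568 and 0.08). Hand1 (69.2 to 101 CPM in flox, difference 5.33, SE 0.36, adjusted p = 0.00173) and Hand2 (12.9 to 213 CPM, difference 3.16, SE 0.26, adjusted p = 0.00208) rose more in KI, from lower day 4 levels. In the smooth muscle list 6 of 10 were called, all more positive in KI, among them Acta2 (99.1 to 741 CPM in flox, difference 2.80, SE 0.50, adjusted p = 0.0342). Other lists leaned the other way. Of 16 neural progenitor members 6 were called, all more negative in KI. Of 18 endothelium members 2 were called more positive and 4 more negative.

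**Figure D5:**
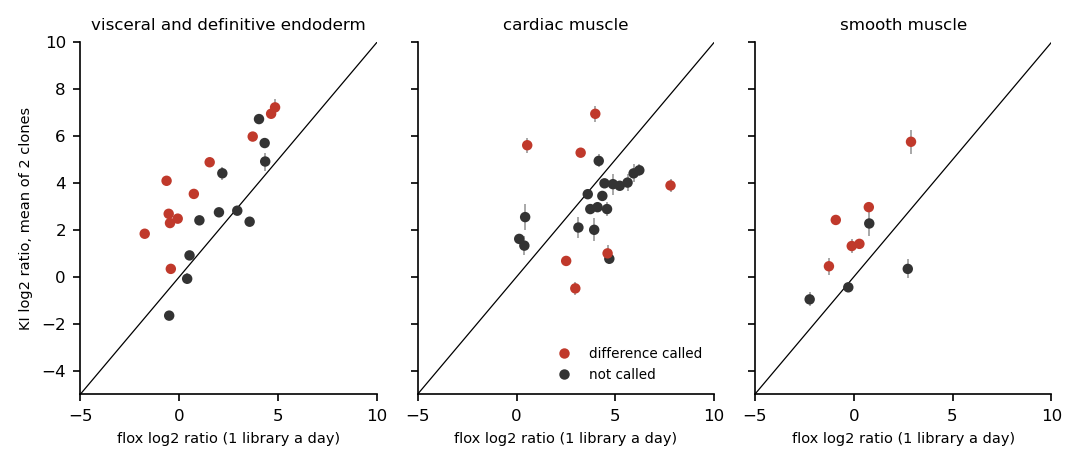
Log2 ratio of day 10 to day 4 with 0.5 CPM added in flox (x axis, 1 library a day) and in KI (y axis, mean of 2 clones, bars run from one clone to the other) for members of 3 lists. Red points are genes whose difference of change was called, and the line marks equal change. Endoderm and smooth muscle genes lie mostly above the line, and cardiac genes on both sides of it.

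Several of the genes with the largest differences between the genotypes ended on opposite sides of their day 4 level. Cited1, a transcriptional coregulator, was at 7.76 and 6.96 CPM at day 4 and 67.2 and 66.0 CPM at day 10 in KI and went from 37.0 to 4.09 CPM in flox (difference 6.35, SE 0.24, adjusted p = 0.000222). Hkdc1, a hexokinase family member, was at 0.180 and 0.407 CPM at day 4 and 28.5 and 26.7 CPM at day 10 in KI and 5.16 to 3.66 CPM in flox (difference 7.02, SE 0.46, adjusted p = 0.000753). Pga5, a pepsinogen, was at 1.13 and 0.407 CPM at day 4 and 19.1 and 21.8 CPM at day 10 against 5.01 to 1.56 CPM, and Gfra3 and Muc13 completed the 5 most positive of the called differences, with Gfra3 at 0.271 and 0.0904 CPM at day 4 and 1.67 and 1.91 CPM at day 10 in KI and 5.41 to 0.290 CPM in flox. On the other side, Pax1, a factor of sclerotome and pharyngeal pouch, was at 0.451 and 0.542 CPM at day 4 and 0.191 and 0.156 CPM at day 10 in KI and 0.248 to 10.4 CPM in flox (difference -6.86, SE 0.67, adjusted p = 0.00338). Hlf, a leucine zipper factor, was at 7.31 and 6.37 CPM at day 4 and 0.715 and 1.52 CPM at day 10 in KI and 1.59 to 12.2 CPM in flox (difference -5.53, SE 0.68, adjusted p = 0.00725). These rankings were made among genes called for the difference with at least 5 CPM in 1 of the 6 libraries. Stab2, Rspo2 and Eef1a2 were the other negative ones, at 7.50, 5.18 and 6.63 CPM in flox at day 10 and under 2 CPM in KI. Stab2 and Rspo2 had no read in flox at day 4, so their fitted differences depend on the prior count. The differences were also refitted with libraries left out, but the values of single genes from those refits are not given here. Most calls of the difference were lost without either KI day 4 library.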

How the data were processed

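RNA was sequenced from KI and flox mouse cells, and 1 table per library lists 29082 RefSeq transcripts. The values used are the read counts per transcript that the authors deposited, with RPKM beside them per the file headers. RPKM, which scales reads by transcript length and library total, was used only to compare levels between genes. The submitters' processing notes name STAR, Bowtie2, SICER 1.1, bcl2fastq and mm9, without saying which served RNA. The counting tool, its use of strand and its treatment of reads that fit several genes are not given in the sources used here, so reads of overlapping, antisense or near-identical genes cannot be told apart.

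Accessions were matched to symbols through RefSeq (28436 matched, 646 not), and per gene the transcript with most reads over all 37 libraries was kept. The test was edgeR 4.0.16 (R 4.3.3, limma 3.58.1) with its quasi-likelihood fit, TMM scaling and filterByExpr (minimum count 10) on the 6 KI libraries of stem cells, day 4 and day 10, with 1 mean per day and no block. P-values were adjusted by Benjamini and Hochberg over all genes tested, and adjusted p values and standard errors of log2 fold changes come from that fit. The difference between the KI and the flox change was tested in the same way on 9 libraries. CPM are TMM-scaled, 0.5 CPM was added to log ratios of single libraries, and exact 95% intervals and floors of 3 reads cover counting error only. The fit was also run on simulated data with few changed genes and an equal spread on every day. These data differ in both, so the simulation does not check the fit for them.

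Clones 27 and 48 are the same 2 cell lines on each day, so their numbers pair the samples. Deviations of same-numbered libraries from their group means correlated at 0.361 (stem cells and day 4), 0.136 (stem cells and day 10) and 0.130 (day 4 and day 10).

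The comparison, gene lists and named genes were chosen with earlier results of these data known. Named were the 15 largest rises and falls among called genes with at least 5 CPM on the higher day, extreme and contrary members and absent markers of each list, the 10 genes that differed most between clones, the 5 most positive and negative differences from flox among genes called for it with at least 5 CPM in a library, Kmt2c and Kmt2d, and the genes with most reads. Alternatives were DESeq2 1.42.0, other scalings and filters, the clone as block, summed transcripts, other sets of libraries and each KI library left out. Leaving libraries out of the list counts was chosen after seeing the data. The other 63 samples of the series were not analysed here, and a few genes are not reported here.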

Additional observations from a re-analysis of the deposited data

Results flagged for a closer look

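For 61 named genes, the change from day 4 to day 10 in KI differed from that in flox by the edgeR test of the difference (adjusted p under 0.05), more positive in KI for 42 and more negative for 19. All values are log2 change in KI minus log2 change in flox, with 1 flox library per day, and no explanation was tested. The spread of the flox change was not measured, and most calls of this test were lost without either KI day 4 library.

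In endoderm, heart and smooth muscle genes the difference was 2.55 for Apob, 0.77 for Apoe, 2.24 for Dab2, 3.71 for Foxa2, 3.94 for Hnf4a and 2.41 for Rbp4. It was 5.33 for Hand1, 3.16 for Hand2 and 2.16 for Tbx20 among heart regulators, against -3.81 for Actn2, -3.93 for Myh6 and -3.70 for Tnni3 among sarcomere genes. Smooth muscle genes differed by 2.80 (Acta2), 2.24 (Myl9) and 1.12 (Tpm1).

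Streak and pluripotency genes differed by 3.32 (Cdx2), 2.01 (Eomes), 3.35 (Evx1), 1.34 (Nodal), 2.45 (Wnt3), 3.09 (Tbx3) and -1.98 (Fgf8). Matrix, vessel and epithelial genes differed by 2.92 (Col4a1), 2.80 (Col4a2), 4.83 (Lama1), -1.48 (Lama5), -1.22 (Nid2), 1.30 (Fn1), 4.84 (Hapln1), 2.83 (Kdr), -0.99 (Egfl7), 2.75 (Krt18) and 1.34 (Cdh1). Neural genes differed by -3.68 (En2), -4.93 (Sox1) and -9.60 (Neurog1, which had no read in KI at day 10, so that its value depends on the prior count).

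Signalling genes differed by 3.26 (Wnt2), 4.22 (Wnt5a), 2.20 (Nkd1), 1.59 (Smad6), 0.88 (Tgfb2), 2.16 (Fst), 2.75 (Aldh1a2), 3.30 (Cyp26a1) and -3.0 (Crabp2). Imprinted, placental, cycle and other genes differed by 2.81 (Phlda2), 4.38 (Plac1), -0.78 (Ccne1), 1.14 (Ccne2), -1.06 (Tet1) and -0.49 (Eef2). The genes chosen for the size of this difference had 7.47 (Gfra3), 7.04 (Muc13), 7.02 (Hkdc1), 6.41 (Pga5), 6.35 (Cited1), -9.13 (Stab2), -7.39 (Rspo2), -6.86 (Pax1), -6.73 (Eef1a2) and -5.53 (Hlf).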

How the results depend on the processing

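Genes called and at least 2-fold numbered 3921 in place of 6412 under the stricter filter of a mean of at least 5 CPM, which tests fewer genes. With 1 KI library left out, genes called ranged from 9384 to 12365. The count of differences from flox (1234) was 547 with only the 6 libraries of day 4 and day 10, and it ranged from 83 to 4176 with 1 KI library left out. The cause was not tested. With the clone as replicate block, 11477 genes were called, and of the 227 named genes tested the calls of Angptl7, Cx3cr1, Id3 and Meg3 were gained and no other call changed. With 1 KI library left out, 14 named genes turned sign, none of them called with all libraries (Angptl7, Arhgap30, Cdx2, Des, Hoxb13, Laptm5, Lef1, Meg3, Mirg, Nid2, Psat1, Rian, Sox3 and Tfcp2l1). Of these Laptm5 and Sox3 were then called in the other direction: Laptm5 (0.36) ranged from -1.26 to 1.1 on the log2 scale, and Sox3 (0.24) from -0.48 to 0.74. Calls of named genes were otherwise kept for 218 of 227 with DESeq2, 225 without scaling, 226 with summed transcripts and 212 to 215 with 1 library left out. The median log2 fold change over all genes moved by under 0.1 under every scaling. The list medians kept their sign in all 8 refits, except that of simple epithelium (0.00 in place of 0.16 without the day 10 library of clone 27), and moved by more than the spread between clones in 0 to 11 of the 28 lists. With a library left out, the calls against the direction of most members moved from 2 to 1 in the naive, smooth muscle, trophoblast and neural progenitor lists, and to 3 in the last without the day 10 library of clone 27. With 1 clone per replicate and 2 replicates per day, the spread at day 10 rests on a single pair of libraries. A refit without either of them has no day 10 replicate.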

Other observations

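Further members of the lists had large steps. Inhba, the activin A subunit, was at 0.180 and 0.181 CPM at day 4 and 10.3 and 13.6 CPM at day 10 (log2 fold change 6.01, SE 0.35, adjusted p = 1.55e-05). Tgfbi, a matrix protein induced by TGF-beta, was at 3.07 and 2.94 CPM at day 4 and 154 and 213 CPM at day 10 (log2 fold change 5.94, SE 0.21, adjusted p = 1.94e-06). Both rose in each clone. Aldh1a1, another enzyme of retinoic acid synthesis, was at 0.0451 and 0.0904 CPM at day 4 and 2.29 and 3.35 CPM at day 10 (log2 fold change 5.28, SE 0.66, adjusted p = 0.000242), and Tbx5, a heart and forelimb factor, at 0.0902 and 0.0904 CPM at day 4 and 7.01 and 11.8 CPM at day 10 (log2 fold change 6.62, SE 0.46, adjusted p = 1.36e-05). Otx2, an anterior and epiblast factor, fell (93.5 and 102 CPM at day 4 and 5.72 and 2.65 CPM at day 10, log2 fold change -4.56, SE 0.32, adjusted p = 4.75e-05, and -5.19 and -4.08 without the day 10 library of clone 27 or 48). These genes were chosen after their values were seen.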
